A study of Arabidopsis thaliana with 15 samples.

Results

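Roots of Arabidopsis thaliana supplied with nitrate for 8 h were compared with roots supplied with ammonium for the same time. The members of the comparison were chosen by their labels alone and were the 3 samples harvested 8 h after nitrate and the 3 harvested 8 h after ammonium, 6 of the 15 samples of the study. All 22746 probe sets of the Affymetrix ATH1 array, on which short oligonucleotides report the transcript of a gene, entered the comparison. The Columbia-0 plants grew in hydroponics up to growth stage 5.10 and then spent 26 h in medium without nitrogen. Some plants then received 1 mM nitrate and others 1 mM ammonium. Each sample was a pool of the roots of at least 5 plants, and the 3 samples of a group were biological replicates. The other groups, also of 3 samples, were roots just before supply and roots 1.5 h after either ion. The labels do not name the counter-ion of either salt, and its effect cannot be told apart from that of the ion. Roots kept without nitrogen for a further 8 h were not analysed here, so a level that differs from that before supply also differs in time since transfer and time of day.

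Nitrate and ammonium are the main inorganic nitrogen sources of plants and enter metabolism at different steps. Nitrate is taken up by transporters of the NRT2 and NPF families, reduced to nitrite and then to ammonium at the cost of NADPH, NADH or reduced ferredoxin, and also acts as a signal that sets the transcription of many genes. Ammonium is taken up by AMT transporters and joined to glutamate without first being reduced. Its further assimilation draws on carbon skeletons from the tricarboxylic acid cycle. Ammonium as the only nitrogen source is also known to acidify the medium and to alter root growth.

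The number of arrays limited the precision, and the standard error of the difference between the ions had a median of 0.0921 log2. The replicates correlated across probe sets at r = 0.99575 to 0.99775 with nitrate and 0.99688 to 0.99711 with ammonium, and samples of different ions at 0.98904 to 0.99054. Replicate 1 of each ion stood apart from the other replicates of its group in genes of the hypoxia response, described further on. Root hair expansins EXPA7 and EXPA18, the measured 2 of the 17 root markers looked for, had mean levels of 10.44 and 10.61 log2 with nitrate and 10.14 and 10.58 with ammonium. The 4 measured shoot markers were RCA, from 10 loci looked for, and LHCB4.1, LHCB4.2 and LHCB4.3, found by symbol. They had group means between 4.92 and 6.78, and none of the 6 markers passed the test between the ions at 8 h. At 1.5 h both root markers were called, higher with nitrate (EXPA7 by 0.41 ± 0.12 log2, adjusted p = 0.031, and EXPA18 by 0.41 ± 0.10, adjusted p = 0.016), and their part in the 1.5 h differences was not tested. In whole roots, fewer cells of a type and less RNA per cell cannot be told apart.

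Values are RMA expression values per probe set on the log2 scale. Differences are nitrate minus ammonium on that scale, given ± the standard error of the limma fit (n = 3 per group), and a fold is 2 to the power of the difference. A gene is called where the Benjamini-Hochberg adjusted p over all probe sets was below 0.05. The deposited values carry no detection call, so no fold is given where the lower group mean was under 5 log2, a level not shown to be above background.

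At 8 h the ions differed in 2430 of the 22746 probe sets (10.7%), of which 1228 were higher with nitrate (5.4%) and 1202 higher with ammonium (5.28%). With samples centred on their medians the split was 1349 and 960. Most differences were small. The median size was 0.48 log2 among the called probe sets and 0.10 among all. A difference of at least 2-fold was called in 371 probe sets (1.63%), 185 higher with nitrate (0.813%) and 186 higher with ammonium (0.818%). At 4-fold the counts were 32 and 28, at 8-fold 12 and 9, and at 16-fold 4 and 1. These counts are limits on the log2 difference and include probe sets whose lower group mean was under 5 log2. HHO1 (ammonium mean 3.66) and OCT1 (nitrate mean 4.34), both counted at 16-fold, are among these. The 3 nitrate values did not overlap the 3 ammonium values in 6310 probe sets (27.7%), and 2405 (10.6%) were both called and without overlap. Of the 13355 genes with a name here, 1250 were called (9.36%), 640 with nitrate higher (4.79%) and 610 with ammonium higher (4.57%). At an unadjusted p below 0.05 there were 4989 probe sets (21.9%).

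**Figure D1:**
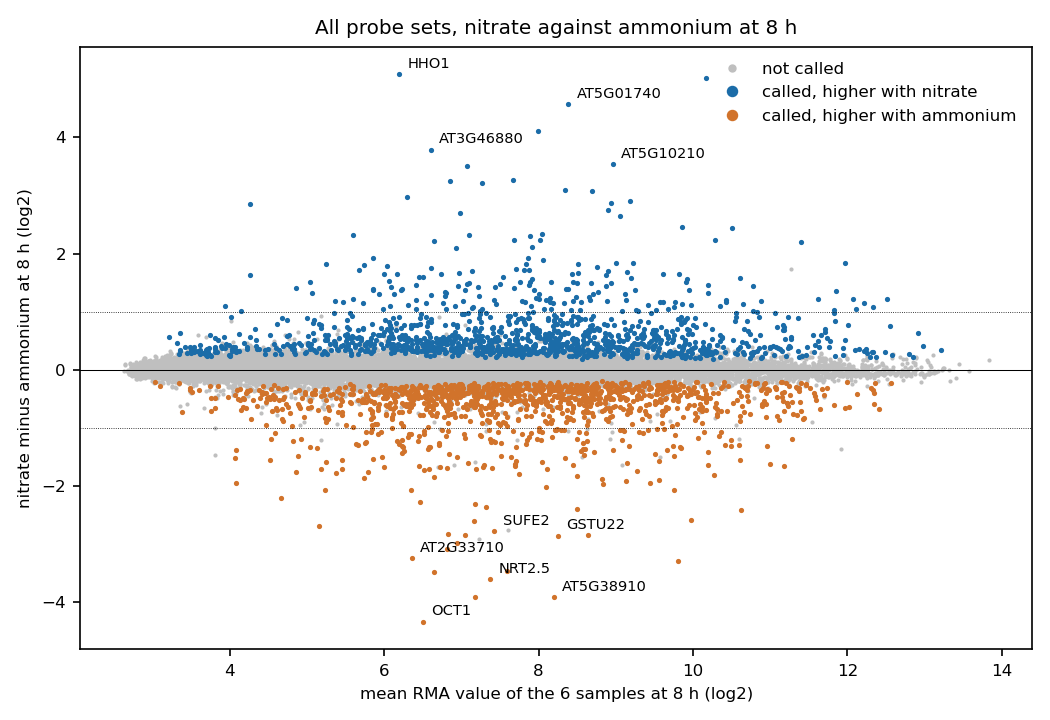
Difference between nitrate and ammonium at 8 h (vertical axis, log2) against the mean RMA value of the 6 samples (horizontal axis, log2) for each of the 22746 probe sets. Grey points were not called, blue points were called with nitrate higher (1228) and orange points with ammonium higher (1202), and dotted lines mark a 2-fold difference.

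The regulators of the nitrogen response held the largest difference and differed among themselves in direction. The largest difference among named genes was that of HHO1 (AT3G25790). HHO1 belongs to a small GARP family of transcription factors, some of which are known as nitrate-inducible repressors of nitrate uptake and starvation genes. Its level was 8.78, 8.72 and 8.72 in the 3 nitrate samples and 3.85, 3.50 and 3.61 in the 3 ammonium samples, against a mean of 3.82 before supply. The ammonium samples thus lay at the level before supply, which was not shown to be above background. The difference was 5.08 ± 0.10 log2 (adjusted p = 9.8e-14), and at 1.5 h it had been 5.50 ± 0.10.

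The relatives of HHO1 did not share its pattern. HHO3 (AT1G25550) was 8.84, 8.65 and 8.68 with nitrate and 7.78, 8.24 and 7.74 with ammonium. It was 1.75-fold higher with nitrate at 8 h (0.81 ± 0.12 log2, adjusted p = 0.00018), whereas the difference at 1.5 h was -0.05 ± 0.12 and the change between the times was itself called (adjusted p = 0.0068). HHO2 (AT1G68670) was 8.24, 8.05 and 7.82 with nitrate and 7.72, 7.72 and 7.63 with ammonium, a difference of 0.35 ± 0.10 log2 that only just passed the test (adjusted p = 0.041). That call was lost in 6 of 13 alternative analyses. Both ions gave HHO2 and HHO3 higher values than the mean before supply, which was 6.78 for HHO2 and 6.42 for HHO3.

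HHO5 (AT4G37180) went the opposite way. It read 6.19, 6.26 and 6.13 with nitrate and 7.71, 7.56 and 7.80 with ammonium, 2.82-fold higher with ammonium (-1.50 ± 0.10 log2, adjusted p = 2.9e-08), a gap that had been -0.72 ± 0.10 at 1.5 h. HHO6 (AT1G49560) was likewise higher with ammonium, by a smaller amount (-0.57 ± 0.09 log2, adjusted p = 0.0005). NRG2 (AT3G60320), a nitrate regulator, read 8.80 to 8.92 with nitrate and 8.66 to 8.86 with ammonium and was not called. Of these 6 regulators, 3 were higher with nitrate and 2 with ammonium. That is 83.3% called, against 9.36% of all named genes. The list was written with 33 loci, 6 of which were found among the named genes.

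**Figure D2:**
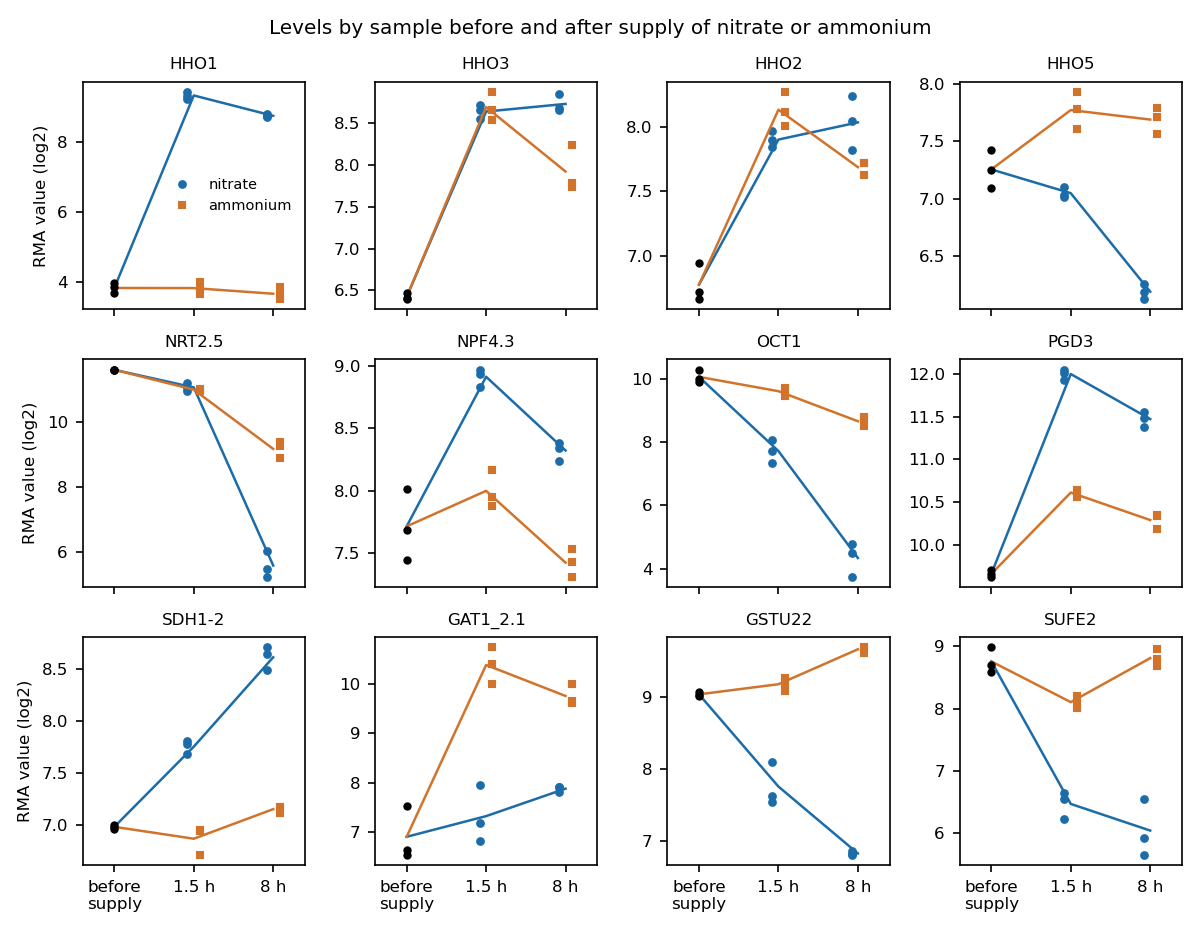
RMA value (log2, vertical axis, a separate range per panel) of 12 genes before supply, at 1.5 h and at 8 h, with 1 point per sample (black before supply, blue circles nitrate, orange squares ammonium) and lines through the group means. HHO1 is high only in the nitrate samples, HHO2 and HHO3 part between the ions at 8 h, and NRT2.5 has a mean of 11.62 before supply and parts between the ions at 8 h but not at 1.5 h.

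In the nitrate transport list, NRT2.5 (AT1G12940) had the largest difference in size. It encodes a high-affinity nitrate transporter known for its expression in nitrogen-starved roots. Its level stood at 11.61, 11.63 and 11.63 before supply. At 8 h its level was 6.03, 5.22 and 5.46 with nitrate and 9.39, 9.26 and 8.88 with ammonium. All 6 supplied samples lay below the 3 samples before supply, and the nitrate samples lay below the ammonium samples. The transcript was 12.2-fold higher with ammonium (-3.60 ± 0.16 log2, adjusted p = 4.9e-10). At 1.5 h the difference had been within its standard error (0.07 ± 0.16), and the change of the difference from 1.5 h to 8 h was -3.67 ± 0.23 (adjusted p = 3.1e-07).

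The remaining 11 measured members of the transport list belong to the NPF family, whose members carry nitrate, hormones or glucosinolates. NPF4.3 (AT1G59740) was 8.24, 8.35 and 8.38 with nitrate and 7.31, 7.43 and 7.53 with ammonium, 1.87-fold higher with nitrate (0.90 ± 0.12 log2, adjusted p = 6.9e-05). NPF4.4 was 1.48-fold higher with nitrate (adjusted p = 0.002). GTR2, a glucosinolate transporter of that family, was 1.29-fold higher with nitrate (adjusted p = 0.0036), with 10.27 to 10.41 against 9.93 to 10.04. The other members, NPF3.1, NPF4.1, NPF4.2, NPF4.5, NPF5.13, NRT1.3, NRT1.4 and GTR1, had differences between 0.08 and 0.25 log2 and were not called. Counted together, 3 of the 12 members were higher with nitrate and 1 with ammonium, with a median difference of 0.14 log2 against 0.01 over all probe sets. That is 33.3% called, against 9.36% of all named genes. Of the 21 loci written for this list, 3 were found among the named genes, and the other members entered by symbol. No NRT2 gene other than NRT2.5 was among them.

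OCT1 (AT1G73220), an organic cation and carnitine transporter, had the largest difference among named genes higher with ammonium. Its values were 4.79, 4.48 and 3.74 with nitrate and 8.51, 8.70 and 8.79 with ammonium, against a mean of 10.07 before supply. The gap of -4.33 ± 0.22 log2 (adjusted p = 2.3e-09) stood against -1.90 ± 0.22 at 1.5 h, and the change was called (adjusted p = 0.00037). Within the list of potassium and proton transport, CHX16, a cation/proton exchanger, was the called 1 of 6 members. It was 2.58-fold higher with ammonium (-1.37 ± 0.12 log2, adjusted p = 1.1e-06).

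In the list of nitrate reduction and its reductant supply, 2 of 4 members were called, both higher with nitrate. That is 50%, against 9.36% of all named genes. The list was written with 19 loci, and 4 of them were found among the named genes. No nitrate or nitrite reductase gene was among those 4, so the count does not describe nitrate reduction itself. PGD3 (AT5G41670) and PGD1 (AT1G64190) encode 6-phosphogluconate dehydrogenase, an NADPH-producing enzyme of the oxidative pentose phosphate pathway. PGD3 was 11.56, 11.49 and 11.38 with nitrate and 10.18, 10.35 and 10.34 with ammonium, 2.27-fold higher (1.18 ± 0.07 log2, adjusted p = 1e-08). PGD1 was 12.37, 12.37 and 12.29 against 11.32, 11.37 and 11.26, 2.04-fold higher (1.03 ± 0.06 log2, adjusted p = 1.3e-08). Another member of the enzyme family, PGD2, differed by -0.03 ± 0.06 and was not called. The list held 1 further gene, AT1G70820, which lay at 3.13 to 3.35 in all 6 samples.

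In the list of the tricarboxylic acid cycle and organic acid synthesis, 3 of 18 members were called, all higher with nitrate. That is 16.7%, against 9.36% of all named genes. SDH1-2 (AT2G18450), a flavoprotein subunit of succinate dehydrogenase, was 8.49, 8.71 and 8.64 with nitrate and 7.17, 7.11 and 7.17 with ammonium, 2.76-fold higher (1.46 ± 0.08 log2, adjusted p = 3e-09). Its gap at 1.5 h had been 0.89 ± 0.08, and the change was called (adjusted p = 0.0059). AT3G55410 was 1.61-fold and the isocitrate dehydrogenase gene IDH-VI 1.39-fold higher with nitrate (adjusted p = 0.00027 and 4e-05). The remaining 15 members were not called, and the list median was 0.09 log2.

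In the glycolysis list the ions divided related genes. PGM (AT1G78050), of the phosphoglycerate mutase family, was 10.63, 10.29 and 10.39 with nitrate and 8.69, 8.95 and 8.75 with ammonium, 3.13-fold higher (1.64 ± 0.09 log2, adjusted p = 6e-09). AT5G04120, placed in the list as a member of that family, was higher with ammonium, with 7.73, 8.47 and 9.21 against 7.51, 5.35 and 4.75 with nitrate. Replicate 1 of nitrate lay close to the lowest ammonium sample, and the difference was -2.60 ± 0.49 log2 (adjusted p = 0.002). Before supply the gene stood at a mean of 11.75. GAPC2, a cytosolic glyceraldehyde-3-phosphate dehydrogenase, was 1.26-fold higher with nitrate (adjusted p = 0.0035), and the other 5 of 8 members were not called.

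In the list of ammonium uptake and assimilation, 1 of 27 written loci was found among the named genes. That gene was GAT1_2.1 (AT1G15040), named for a glutamine amidotransferase domain, and the list describes it alone. It was 7.92, 7.80 and 7.92 with nitrate and 9.65, 9.9996 and 9.60 with ammonium, against a mean of 6.91 before supply. The transcript was 3.65-fold higher with ammonium (-1.87 ± 0.28 log2, adjusted p = 0.00021), and a second probe set of the gene gave -1.26 ± 0.31 (adjusted p = 0.014). At 1.5 h the gap had been -3.05 ± 0.28, and the change between the times was not called for either probe set.

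Genes without a symbol in the tables used here held most of the other large differences. Among the 14 named genes with the largest differences in the direction of nitrate, 13 are given by locus, and by the rule of choice the ions did not overlap in any of them. AT5G01740 was 10.55, 10.66 and 10.81 with nitrate and 5.93, 6.40 and 5.97 with ammonium, 23.9-fold higher (4.58 ± 0.13 log2, adjusted p = 3.5e-12). AT5G10210 was 10.75, 10.76 and 10.67 against 6.79, 7.50 and 7.28, 11.6-fold higher, and AT5G26200 8.89, 8.70 and 8.90 against 4.95, 5.73 and 5.29, 11.4-fold higher. AT5G52790, AT3G53770 and AT1G49500 were 9.66-fold, 9.49-fold and 8.5-fold higher. AT5G62720, AT3G47170, AT1G73600 and AT2G16660 were between 5.04-fold and 6.76-fold higher. AT1G80380, the gene of glycerate kinase in photorespiration, was 11.89, 11.65 and 11.66 against 9.19, 9.37 and 9.30, 5.45-fold higher (adjusted p = 8.5e-10). AT3G46880 and AT2G22200, whose ammonium means were under 5 log2, differed by 3.79 ± 0.18 and 2.98 ± 0.17.

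The 13 genes did not stand alike to their level before supply. AT1G73600 had a mean of 10.19 before supply, between the 10.97 to 11.19 of the nitrate samples and the 8.47 to 8.81 of the ammonium samples. AT2G16660 showed the same order, with 8.14 before supply, 9.17 to 9.25 with nitrate and 6.79 to 6.98 with ammonium. AT5G01740 was the third of this kind, with 6.70 before supply. AT1G80380, at 7.80 before supply, was lower there than in any of the 6 samples at 8 h.

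**Figure D3:**
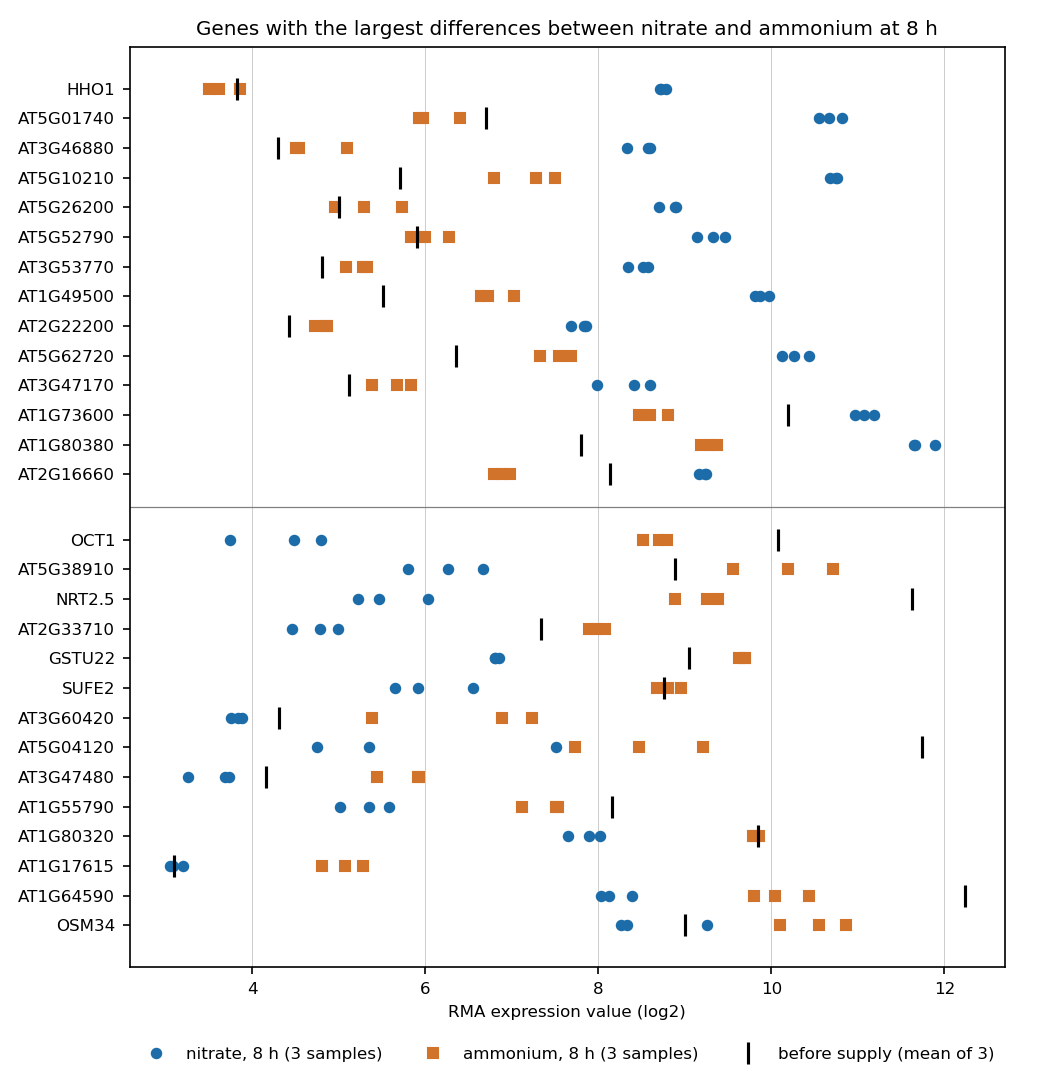
RMA value (log2, horizontal axis) in each sample at 8 h for the 28 named genes with the largest called differences without overlap, the 14 higher with nitrate above the line and the 14 higher with ammonium below it. Blue circles are the 3 nitrate samples, orange squares the 3 ammonium samples and black ticks the mean before supply, and the blue and orange marks do not overlap in any row.

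Among the 14 genes in the direction of ammonium, OCT1, NRT2.5, GSTU22, SUFE2 and OSM34 have symbols. GSTU22 (AT1G78340), a tau class glutathione S-transferase, of a family that joins glutathione to foreign and stress compounds, was 6.81, 6.85 and 6.81 with nitrate and 9.62, 9.70 and 9.70 with ammonium. It was 7.21-fold higher with ammonium (-2.85 ± 0.11 log2, adjusted p = 7.3e-11), and the mean before supply was 9.04. SUFE2 (AT1G67810), of a family that activates cysteine desulfurase in iron-sulfur cluster assembly, was 6.55, 5.92 and 5.65 against 8.96, 8.80 and 8.68, 6.83-fold higher with ammonium (adjusted p = 2.9e-08). OSM34 (AT4G11650), an osmotin-like protein, was 9.26, 8.33 and 8.27 against 10.55, 10.86 and 10.10, 3.7-fold higher with ammonium (adjusted p = 0.002).

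AT5G38910 was 6.67, 5.81 and 6.26 with nitrate and 10.20, 10.71 and 9.56 with ammonium, 15-fold higher with ammonium (-3.91 ± 0.36 log2, adjusted p = 1.7e-06). AT1G55790, AT1G80320 and AT1G64590 were 4.21-fold, 3.89-fold and 3.77-fold higher with ammonium. In AT2G33710, AT3G47480, AT3G60420 and AT1G17615 the nitrate mean was under 5 log2, and the differences were -3.24 ± 0.17, -2.20 ± 0.20, -2.68 ± 0.36 and -1.95 ± 0.11. A second probe set of AT3G60420 lay between 3.24 and 3.44 in all 6 samples and was not called (0.06 ± 0.07), at a level not shown to be above background. AT1G17615 stood at 3.04 to 3.19 with nitrate, 3.09 on average before supply, and 4.81 to 5.28 with ammonium.

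Gene lists grouped a further set of differences. Of 354 genes in the lists, 83 were called (23.4%), 43 with nitrate higher and 40 with ammonium higher, against 9.36% of all named genes. The lists were written around pathways of nitrogen nutrition, and earlier results of these data were known when they were chosen, so this share describes the lists and was not tested. Single lists stand beside the same 9.36%. The share called was 45.5% in the mitochondrial list, 44.8% in expansins and xyloglucan endotransglucosylases and 41.2% in CC-type glutaredoxins. It was 36.4% in tau class glutathione S-transferases, 25.5% in UDP-glycosyltransferases, 25% in sugar transport, 22.2% in auxin genes and 5.88% in jasmonate and defence genes. Further shares were 40% in sulfate genes, 37.5% in glycolysis, and 33.3% in iron genes and in polyamine synthesis. They were 16.7% in potassium and proton transport and in cytokinin genes, 14.3% in class III peroxidases and 9.09% in autophagy genes. The plot of list members shows that most members of most lists lay close to 0.

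**Figure D4:**
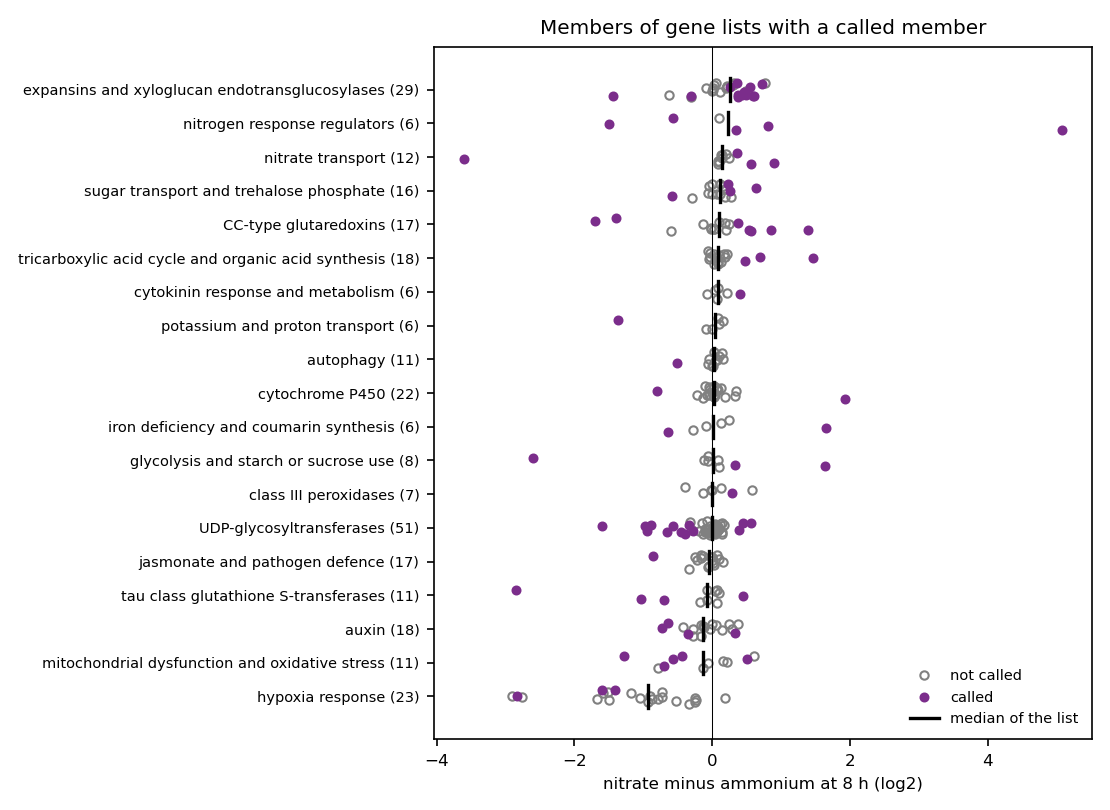
Difference between nitrate and ammonium at 8 h (log2, horizontal axis) for each member of the gene lists with at least 6 members and at least 1 call, with the number of members in brackets. Filled purple points were called, open points were not, black bars are list medians, and points are spread vertically only for display. The hypoxia list has the lowest median, -0.94, with 3 of 23 members called.

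Cell wall proteins were the list with the most calls in the direction of nitrate. Expansins and xyloglucan endotransglucosylases act on the wall polymers of growing cells. Of 29 members, 11 were higher with nitrate and 2 with ammonium, with a median of 0.26 log2. XTH21 was 7.52, 7.50 and 7.66 with nitrate and 6.87, 6.97 and 7.07 with ammonium, 1.51-fold higher (adjusted p = 0.00062). EXPB3 was 1.53-fold higher with nitrate (adjusted p = 0.0033) and XTH16 1.3-fold (adjusted p = 0.0084, and 0.052 without replicate 2 of nitrate), and EXPA16 differed by 0.46 ± 0.10 at a level under 5 log2 with either ion. The expansin-like gene EXLB1 was 9.14, 8.51 and 8.72 with nitrate and 10.25, 10.31 and 10.12 with ammonium, 2.71-fold higher with ammonium (adjusted p = 3.4e-06). The count of 11 rested in part on single libraries and was 4 without replicate 2 of nitrate and 6 without replicate 1 or replicate 3 of ammonium.

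Redox genes split by ion. Of 17 CC-type glutaredoxins, small plant-specific proteins several of which are known to respond to nitrogen supply, 5 were higher with nitrate and 2 with ammonium. AT4G33040 was 6.16, 5.90 and 5.86 with nitrate and 7.81, 7.61 and 7.59 with ammonium, 3.24-fold higher with ammonium (-1.70 ± 0.11 log2, adjusted p = 4.2e-08). AT5G11930 was 2.63-fold higher with ammonium (-1.39 ± 0.10, adjusted p = 5.8e-08). At 1.5 h their differences of -0.24 ± 0.11 and -0.02 ± 0.10 were not called, and both changes were called (adjusted p = 0.00011 and 4.3e-05). AT3G62930 was higher with nitrate, with 6.52, 6.52 and 6.61 against 5.35, 5.35 and 4.77 (1.39 ± 0.17, adjusted p = 3.6e-05), as it was at 1.5 h (1.88 ± 0.17). AT1G06830 was 1.81-fold higher with nitrate (adjusted p = 0.012, lost in 2 alternative analyses) and AT4G15660 differed by 0.56 ± 0.12 under 5 log2. The count of 5 was 2 without replicate 2 of nitrate or replicate 3 of ammonium, and 3 without replicate 1 of ammonium.

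Among 11 tau class glutathione S-transferases 3 were higher with ammonium and 1 with nitrate. GSTU25 was 6.03, 6.40 and 6.27 with nitrate and 7.11, 7.18 and 7.48 with ammonium, 2.04-fold higher with ammonium (adjusted p = 6.3e-05), and GSTU20 was 1.62-fold higher (adjusted p = 0.0001). GSTU26 was 1.37-fold higher with nitrate (adjusted p = 0.016), a call lost in 3 alternative analyses. In the list of mitochondrial dysfunction and oxidative stress, 4 of 11 members were higher with ammonium and 1 with nitrate. AT5G14730 was 6.26, 6.08 and 5.85 with nitrate and 7.35, 7.44 and 7.25 with ammonium, 2.44-fold higher (adjusted p = 8.4e-07). NDB2 and NDB1 encode NAD(P)H dehydrogenases of the outer face of the inner mitochondrial membrane and differed in opposite directions, NDB2 by -0.69 ± 0.10 (adjusted p = 0.00026) and NDB1 by 0.50 ± 0.08 (adjusted p = 0.00036). AT5G51440 and AT2G32020 were 1.35-fold and 1.48-fold higher with ammonium, with adjusted p of 0.032 and 0.041. The call of AT5G51440 was lost in 7 of 13 alternative analyses, among them the second quantile normalization (adjusted p = 0.057) and centring (adjusted p = 0.067). That of AT2G32020 was lost in 6, among them the fit with the replicate number as a block (adjusted p = 0.055). The count of 4 was 2 when replicate 2 or 3 of nitrate, or any replicate of ammonium, was left out.

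UDP-glycosyltransferases, which attach sugars to hormones and secondary metabolites, were called in 13 of 51 members, 10 with ammonium higher and 3 with nitrate higher. The count of 10 was 7 without replicate 3 of nitrate and 8 without any other single sample at 8 h. UGT73D1 was 6.49, 6.38 and 5.98 with nitrate and 8.14, 7.95 and 7.58 with ammonium, 3.04-fold higher (-1.60 ± 0.17 log2, adjusted p = 5.5e-06). UGT76D1 and UGT87A2 were 1.97-fold and 1.93-fold higher with ammonium, and UGT85A2 and UGT84A4 1.47-fold and 1.36-fold higher with nitrate. The median of the list was near 0 and changed sign with the scaling (0.00 as deposited, -0.02 after a second quantile normalization). UGT74B1, of glucosinolate synthesis, was 1.31-fold higher with nitrate (adjusted p = 0.0036).

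Of 22 cytochrome P450 genes, 1 was higher with each ion. The 9.09% called was near the 9.36% of all named genes. CYP78A9 was 8.58, 8.87 and 9.03 with nitrate and 6.87, 6.90 and 6.94 with ammonium, 3.79-fold higher (1.92 ± 0.13 log2, adjusted p = 4e-08), as at 1.5 h (1.93 ± 0.13). CYP71B23 was 1.74-fold higher with ammonium (adjusted p = 2.5e-05). The count with nitrate higher was 3 without replicate 1 of nitrate or replicate 3 of ammonium and 2 without replicate 1 of ammonium, and that with ammonium higher was 2 without replicate 3 of ammonium.

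Among 18 auxin genes 3 were higher with ammonium and 1 with nitrate. WES1, a GH3 enzyme that conjugates auxin to amino acids, was 8.28, 8.24 and 8.21 with nitrate and 8.96, 9.07 and 8.89 with ammonium, 1.66-fold higher with ammonium (adjusted p = 7.4e-07). IAA18, an Aux/IAA repressor, was 1.57-fold higher with ammonium (adjusted p = 5.3e-05) and LBD16, a lateral root regulator, 1.27-fold (adjusted p = 0.024). The auxin synthesis gene YUC2 was 1.26-fold higher with nitrate (adjusted p = 0.02). The calls of LBD16 and YUC2 were lost in 5 and 3 alternative analyses. Of 6 cytokinin genes, the response regulator RR16 was called, with 3.57 to 3.94 against 3.25 to 3.39, both under 5 log2, and its call was lost in 2 alternative analyses.

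Iron and sulfur genes differed singly. In the list of iron deficiency and coumarin synthesis 1 of 6 members was higher with each ion. AT1G47400 was 6.61, 7.003 and 6.87 with nitrate and 5.41, 5.09 and 5.01 with ammonium, 3.15-fold higher (adjusted p = 0.003), and AT3G13610 was 11.66, 11.73 and 11.71 against 12.31, 12.46 and 12.26, 1.56-fold higher with ammonium (adjusted p = 2.7e-05). In the sulfate list of 5 genes, SIR, the sulfite reductase, was 1.48-fold higher with nitrate (adjusted p = 9.5e-05), and SUFE2 was described above.

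Sugar transport, defence and other lists held few calls. Among 16 sugar transport and trehalose phosphate genes, the sugar transporter gene SWEET13 was 1.55-fold higher with nitrate (adjusted p = 0.0038). SWEET17 (1.2-fold) and SWEET8 (0.23 ± 0.06, under 5 log2) were also called in that direction and SWEET14 (1.5-fold) in the other, each lost in 5 or more of the alternative analyses. PDF2.1, a plant defensin and the called 1 of 17 genes of jasmonate and pathogen defence, was 8.00, 8.70 and 7.81 with ammonium and 7.31, 7.27 and 7.34 with nitrate, after 3.98 on average before supply. SAMDC, of polyamine synthesis, was 1.31-fold higher with ammonium (adjusted p = 0.00057), the autophagy gene ATG8B 1.43-fold (adjusted p = 0.039, lost in 5 alternative analyses) and the peroxidase PRX72 1.22-fold higher with nitrate (adjusted p = 0.016, lost in 2). A further 11 lists with 49 members held 0 calls by limma's adjusted p, and 9 of their members had an unadjusted p below 0.05. The members with the smallest p in those lists were HTR12, rpl33, LTI30, EIN3, GI, CML30, 4CL8, PAP20, Hsp70-2, NAC014 and EXPA7, with adjusted p from 0.051 to 0.87.

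The hypoxia list had the lowest median difference of the lists with at least 2 members but varied within the groups as well as between them. It holds genes known to respond to low oxygen, and 3 of its 23 members were called, all higher with ammonium, with a median of -0.94 log2. The 13% called stands against 9.36% of all named genes. By limma's unadjusted p, 16 of the 23 were below 0.05, against 21.9% of all probe sets. Members that vary together between samples do not count as independent. The mean deviation of the 23 genes from their average over all 15 samples was 0.14, -1.19 and -0.88 log2 in the nitrate samples and -0.16, 0.83 and 0.83 in the ammonium samples. Replicate 1 of nitrate thus lay above replicate 1 of ammonium, and the groups overlapped. AT4G17670 was called without overlap, with 8.61, 8.16 and 8.28 against 9.88, 9.93 and 10.05 (3.04-fold, adjusted p = 1.7e-06), as was AT5G66985 (2.65-fold, adjusted p = 0.00041). AT3G29970 was called with overlap, with 7.06, 4.34 and 4.86 against 6.12, 9.46 and 9.16 (adjusted p = 0.022, lost in 6 alternative analyses). The number of calls was 12 without replicate 1 of nitrate, 6 without replicate 1 of ammonium and 2 without any other single sample. In the 1.5 h samples the deviation was 0.26, 0.82 and -0.81 with nitrate and 1.05, 0.29 and 0.86 with ammonium. Whether oxygen supply to the roots differed between samples was not tested.

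The comparison of the ions at 1.5 h, with no sample in common, was set beside that at 8 h. Both used the same estimate of the spread for each probe set, so their calls are not independent. At 1.5 h 2430 probe sets were called as well (10.7%), a number equal to that at 8 h, with 1275 higher with nitrate (5.61%) and 1155 with ammonium (5.08%). With samples centred on their medians this split turned, to 1114 with nitrate higher and 1285 with ammonium higher. Differences of at least 2-fold numbered 283 at 1.5 h (1.24%) and 371 at 8 h. Of the probe sets called at 8 h, 1050 were also called at 1.5 h, 977 in the same direction (40.2% of the calls at either time) and 73 in the opposite one. A probe set not called at 1.5 h may still have differed then. Of the 8 h calls, 647 with nitrate higher and 733 with ammonium higher were not called at 1.5 h. The difference had a called increase from 1.5 h to 8 h in 160 and 203 of these. Of the 185 probe sets at least 2-fold higher with nitrate at 8 h, 153 (82.7%) were already higher with nitrate at 1.5 h, and of the 186 at least 2-fold higher with ammonium 119 (64%) were already higher with ammonium. The difference between these shares was not tested.

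**Figure D5:**
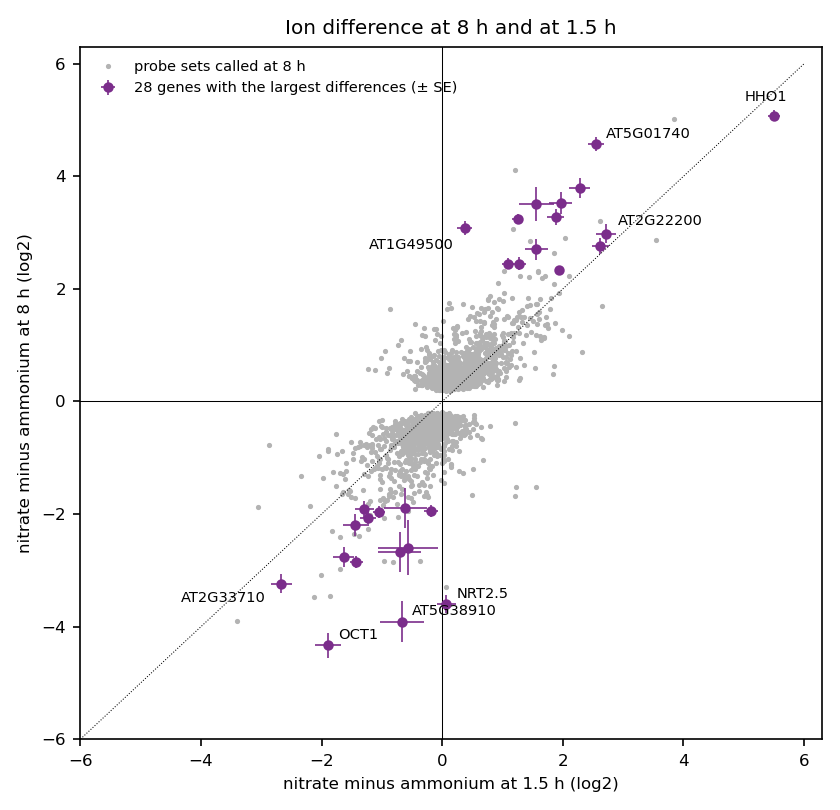
Difference between nitrate and ammonium at 8 h (vertical axis, log2) against that at 1.5 h (horizontal axis, log2) for probe sets called at 8 h (grey) and for the 28 named genes with the largest differences at 8 h (purple, ± standard error). The dotted line marks equal differences, HHO1 lies near it, and NRT2.5 and AT1G49500 lie near 0 on the horizontal axis.

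The change of the ion difference from 1.5 h to 8 h was called in 1023 probe sets (4.5%). It went in the direction of nitrate in 519 (2.28%) and of ammonium in 504 (2.22%), a split of 50.7% to nitrate that became 64% when samples were centred on their medians. Among the probe sets at least 2-fold higher with nitrate at 8 h, 83 (44.9%) had a called increase of the difference, and among those higher with ammonium 89 (47.8%). These sets were picked by the 8 h difference, which is part of the change, so their increases describe the sets. Among the 14 named genes with the largest differences in the direction of nitrate, the change was not called for AT5G62720 (0.14 ± 0.20 log2), HHO1 (-0.42 ± 0.15) and AT2G22200 (0.27 ± 0.23). The last 2 had ammonium means under 5 log2 at both times, so whether their differences changed cannot be read from these values. Among the 14 in the direction of ammonium it was not called for AT2G33710 (-0.57 ± 0.24), AT5G04120 (-2.03 ± 0.69), AT3G47480 (-0.76 ± 0.28), AT1G64590 (-0.62 ± 0.22) and OSM34 (-1.28 ± 0.50). AT3G47480 had nitrate means under 5 log2 at both times and AT2G33710 at 8 h.

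Several genes reached their difference late. AT1G49500 was 8.58, 8.15 and 8.04 with nitrate and 7.96, 7.81 and 7.89 with ammonium at 1.5 h, and 9.87, 9.81 and 9.97 against 6.65, 6.72 and 7.03 at 8 h. AT5G38910 had a difference of -0.67 ± 0.36 at 1.5 h, which was not called. AT1G17615 had one of -0.19 ± 0.11 and was not called either. These stand beside NRT2.5 as the named genes of the 28 without a call at 1.5 h and with a called change, together with AT3G60420.

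A few named genes changed sides. AT3G28510 was higher with nitrate at 1.5 h (1.56 ± 0.33 log2) and higher with ammonium at 8 h (-1.53 ± 0.33), with 5.42, 5.08 and 4.77 against 6.88, 7.05 and 5.92. AT1G07690 was higher with ammonium at 1.5 h (-1.02 ± 0.12) and with nitrate at 8 h (0.77 ± 0.12), and AT4G31875 went from -0.54 ± 0.13 to 0.90 ± 0.13. The flavin monooxygenase gene FMO (AT1G12200) went from 0.47 ± 0.14 to -0.62 ± 0.14, and AT2G17660 and AT3G53820 from ammonium to nitrate. Each of these 6 genes was called at both times and in the change.

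Probe sets for which the annotation used here lists no gene held 1170 of the 2430 calls. Among the largest of those with no listed gene were 259681_at and 258629_at. The first was 12.74, 12.60 and 12.70 with nitrate against 6.77, 8.33 and 7.88 with ammonium (5.02 ± 0.26 log2, 32.4-fold). The second was 9.91, 10.14 and 10.10 against 5.87, 5.89 and 6.05 (17.3-fold). In the direction of ammonium, 254215_at was 5.74, 5.132 and 4.79 against 9.24, 9.17 and 8.95 (14.9-fold), and 260540_at was 5.03, 4.78 and 4.93 against 8.24, 8.27 and 8.64 (-3.47 ± 0.11).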

How the data were processed

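The deposited values were log2 RMA expression values per probe set. The submitters' processing notes name RMA and limma, without a version or role, and the authors' log2 scale was read from the values. The array scans were not used here, and no probe set was filtered out. In the deposited annotation 13513 probe sets carried 1 gene, 503 several and 8730 none, and 13436 were found in a RefSeq table (assembly TAIR10.1). For the 147 genes with more than 1 probe set, that with the highest mean was taken. HHO and PGD symbols, NRG2, NRT1.3 and NRT1.4 came from general knowledge of the loci, and AT1G80380 is described as in the series description. Other loci were given no role.

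All 15 samples were fitted with 5 group means in limma 3.58.1 (R 4.3.3, two-sided moderated statistics, prior degrees of freedom 5.11, residual 10), and p-values were adjusted by Benjamini-Hochberg over 22746 probe sets per contrast. The fit was also run on simulated data in which probe sets vary independently of each other, unlike the hypoxia genes here. That run does not measure the error of the calls, and its outcome is not given. Figures were drawn with matplotlib 3.10.9 in Python 3.11.15.

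Named genes were the 14 largest called differences without overlap in each direction, up to 5 called members of each list by adjusted p (or the smallest p where none was called), all measured members of the lists of nitrate transport, nitrate reduction, ammonium uptake and nitrogen regulators, and up to 2 unlisted probe sets in each direction. The genes that changed sides were chosen after their values were seen. Of 40 lists, 5 had no measured member. A written locus counted as measured where the annotation gave it as the single gene of a probe set. The comparison and the lists were chosen with earlier results of these data known. Replicate numbers were not shown to pair the samples (r of same-numbered deviations 0.0424, -0.09414 and 0.1887, and of differently numbered ones -0.1979 to 0.1514). Alternatives were a fit of the compared groups alone, a replicate block, a second quantile normalization, centring on medians, leaving out the lowest 25% of probe sets, a variance trend with robust estimation, array weights and leaving out each sample. A planned promoter motif search was not run, because no promoter sequence was used here.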

Additional observations from a re-analysis of the deposited data

Results flagged for a closer look

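The ion difference changed between 1.5 h and 8 h in 20 of the 28 named genes with the largest differences at 8 h, by limma's test of the change itself. The genes were picked by their 8 h difference, which enters that test, so a change that enlarges the difference is favoured by the choice. Values are the 8 h difference minus the 1.5 h difference in log2. With nitrate higher, the changes were 2.0307 for AT5G01740 (adjusted p = 2.4e-05), 1.5102 for AT3G46880 (0.0028), 1.5716 for AT5G10210 (0.0039), 1.9414 for AT5G26200 (0.014) and 1.3910 for AT5G52790 (0.00099). They were 1.9945 for AT3G53770 (adjusted p = 3.3e-07), 2.7155 for AT1G49500 (4.5e-07), 1.1404 for AT3G47170 (0.027), 1.3604 for AT1G73600 (9.1e-05), 1.1770 for AT1G80380 (0.00065) and 0.4029 for AT2G16660 (0.026).

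With ammonium higher, the changes were -2.4355 for OCT1 (adjusted p = 0.00037), -3.2409 for AT5G38910 (0.0018), -3.6742 for NRT2.5 (3.1e-07), -1.4210 for GSTU22 (9.1e-05) and -1.1353 for SUFE2 (0.016). They were -1.9750 for AT3G60420 (adjusted p = 0.037), -0.8404 for AT1G55790 (0.019), -0.9185 for AT1G80320 (0.0016) and -1.7591 for AT1G17615 (2.1e-05). The difference was larger in size at 8 h in all 20 genes. In AT3G46880, OCT1, AT3G60420 and AT1G17615 the lower group mean at 8 h was under 5 log2. The size of their change therefore cannot be read from these values.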

How the results depend on the processing

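The counts of called probe sets stayed within 1.5 times of those reported in every alternative at 8 h and at 1.5 h, and for the change of the ion difference in every alternative but array weights, which called 1607 in place of 1023 (the cause was not tested). Leaving out 1 sample gave 1817 to 2199 calls at 8 h (365 to 387 of at least 2-fold), 1730 to 2109 at 1.5 h (262 to 315) and 690 to 885 for the change (172 to 210). With the replicate number as a block, 2674 probe sets were called at 8 h, 2754 at 1.5 h and 1180 for the change. The numbers were not shown to pair the samples, and among named genes the block ended the call of AT2G32020 alone. Of 93 called results for named genes and probe sets at 8 h, 78 kept their call in all 13 alternatives that tested them, among them all 28 of the largest differences, 15 lost it in at least 1, and 0 changed direction. Differences in weakly hybridised genes are limited by signal near background, for which no detection call was used here, and 3 arrays per group limit the rest.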
